A study of Mus musculus with 15 samples.

Results

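The genes described here are 44 mouse genes of the lysosome: soluble proteases, enzymes that take apart sugar chains and lipids, proteins of the lysosomal membrane, the regulators Tfeb and Grn, and subunits of the vacuolar proton pump. They were chosen by gene name from lists of lysosomal functions, and all 44 had an entry in a table of 52327 genes. Of these, 43 reached 10 counts in at least 3 of 15 libraries and were tested among the 13199 genes that did so. Ctsh, a cysteine protease, had 0 to 11 counts per library and was not tested.

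Lysosomes are acidic compartments in which proteins, lipids and sugar chains are broken down. The vacuolar proton pump acidifies them. Its V1 sector, facing the cytosol, splits ATP, and its membrane sector, V0, carries the protons. The transcription factor Tfeb and its relatives Tfe3, Mitf and Tfec can switch on many lysosomal genes together through a promoter element built around the letters CACGTG. In granulocytes, mast cells and macrophages, lysosomal enzymes and membrane proteins are also part of the granules and of the digestive compartments of the cell.

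The cells were of the mouse line HoxB, whose cell type the labels list only as Blood, sampled in 5 groups of 3 libraries. EMPTY cells carried control vectors. RUNX1-ETO_ONLY cells carried RUNX1-ETO, a leukaemia fusion transcription factor, and CSF3R_ONLY cells carried CSF3R-T618I, a mutant receptor for granulocyte colony-stimulating factor. Both alleles were present in RUNX1-ETO_FIRST and in CSF3R_FIRST cells, introduced in the order that the names give, and the study asks whether that order matters. The labels give no promoter or vector for the alleles, do not say whether a group was 1 clone, and leave open if each replicate was its own culture. All p-values therefore measure only the spread between these libraries, which may be technical.

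Total counts per library were 17003189 to 18173954, and 16262 to 17242 genes had at least 1 count. Runx1t1, the mouse gene of the ETO portion of the fusion, had 0 counts in all EMPTY and CSF3R_ONLY libraries and 380.3 to 812 CPM (counts scaled to library size with the TMM method) in the 9 libraries labelled as carrying the fusion. Its mean was 494 ± 99.2 CPM (SD, n = 3) in RUNX1-ETO_FIRST and 711 ± 134 CPM in CSF3R_FIRST, with overlapping libraries (log2 difference -0.53, SE 0.172, adjusted p = 0.0567, edgeR's quasi-likelihood test). Csf3r was at 419.6 ± 46.1 CPM in EMPTY, 524 ± 15.4 in RUNX1-ETO_ONLY, 622 ± 4.52 in CSF3R_ONLY, 419 ± 20.1 in RUNX1-ETO_FIRST and 397 ± 32.1 CPM in CSF3R_FIRST. The sources used here do not say whether reads of an introduced receptor are counted under Csf3r, so its level does not check the labels. Markers of neutrophils summed to between 16531 and 57075 CPM in every library, and 8 lymphoid markers to at most 0.441 CPM. In 4 libraries (replicate 1 of RUNX1-ETO_FIRST and replicate 3 of CSF3R_FIRST, EMPTY and RUNX1-ETO_ONLY), long transcripts were lower than in the other libraries of the group (correlation of a gene's deviation with exon length -0.47 to -0.26 over 12873 genes). The lysosomal genes deviated by a median of 0.10 on the log2 scale in EMPTY replicate 3, the largest shift of any library.

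Promoters were searched because the lysosomal genes moved together in most comparisons. RefSeq windows on GRCm38.p6 (mm10), from 250 bases before to 50 bases after the annotated start, were at hand for 36 of the 44 genes. Ctsb, Ctsh, Galns, Asah1, Npc1, Atp6v1b2, Atp6v1c1 and Atp6v1h had no entry. Both strands were searched for CACGTG, for the longer TCACGTGA that contains it, and for the palindrome that adds a G before and a C after TCACGTGA. CACGTG was found in 13 of 36 lysosomal genes (36.1%) and in 8.09% of the 27025 genes in the table. TCACGTGA was found in 6 of 36 (16.7%) against 1.12% of all genes, and the longest form in none of 36 against 0.37%. Such a match describes the letters of the window and does not show that a factor binds there. These 7 stretches, all before the RefSeq start and written 5′ to 3′ on the gene's strand, show where CACGTG (capitals) lies in a protease pair, in sugar-chain enzymes that rose and one that fell with the fusion, in a membrane glycoprotein and in the pump subunit that splits ATP.
Ctsd (chr7:142387908-142387937, minus strand): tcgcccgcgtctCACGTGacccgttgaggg
Ctsl (chr13:64370739-64370768, minus strand): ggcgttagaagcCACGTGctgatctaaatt
Glb1 (chr9:114401010-114401055, plus strand): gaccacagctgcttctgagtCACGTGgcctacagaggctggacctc
Gaa (chr11:119267803-119267848, plus strand): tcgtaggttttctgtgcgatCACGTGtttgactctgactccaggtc
Naglu (chr11:101070009-101070038, plus strand): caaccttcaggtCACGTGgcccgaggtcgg
Lamp1 (chr8:13159080-13159160, plus strand): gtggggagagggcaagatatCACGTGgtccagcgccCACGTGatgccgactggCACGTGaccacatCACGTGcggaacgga
Atp6v1a (chr16:44139365-44139410, minus strand): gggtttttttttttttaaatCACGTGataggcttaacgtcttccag

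Across the study, the lysosomal genes together took 0.693% to 0.723% of all counts in EMPTY, 0.768% to 0.801% in RUNX1-ETO_ONLY, 0.901% to 0.915% in CSF3R_ONLY and 1.01% to 1.08% in RUNX1-ETO_FIRST. The share in CSF3R_FIRST was 1.45% to 1.47%. Their summed level was 6919 ± 390.0 CPM in EMPTY, 7279 ± 242 in RUNX1-ETO_ONLY, 9244 ± 63.6 in CSF3R_ONLY, 10429.7 ± 493 in RUNX1-ETO_FIRST and 15722 ± 277 in CSF3R_FIRST. In this sum EMPTY and RUNX1-ETO_ONLY overlapped, and no other pair of groups did. Of the 43 tested genes, 34 had their highest mean in CSF3R_FIRST, 8 in CSF3R_ONLY and 1, Atp6v0a1, in RUNX1-ETO_FIRST. The lowest mean lay in RUNX1-ETO_ONLY for 22, in EMPTY for 19 and in CSF3R_ONLY for 2, Gaa and Gm2a. How all tested genes divide by highest and lowest group was not computed, so these counts stand without a background. The highest group mean exceeded the lowest by a median of 2.17-fold. These are whole-culture RNA levels, in which fewer cells of a type and less RNA per cell cannot be told apart.

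**Figure D1:**
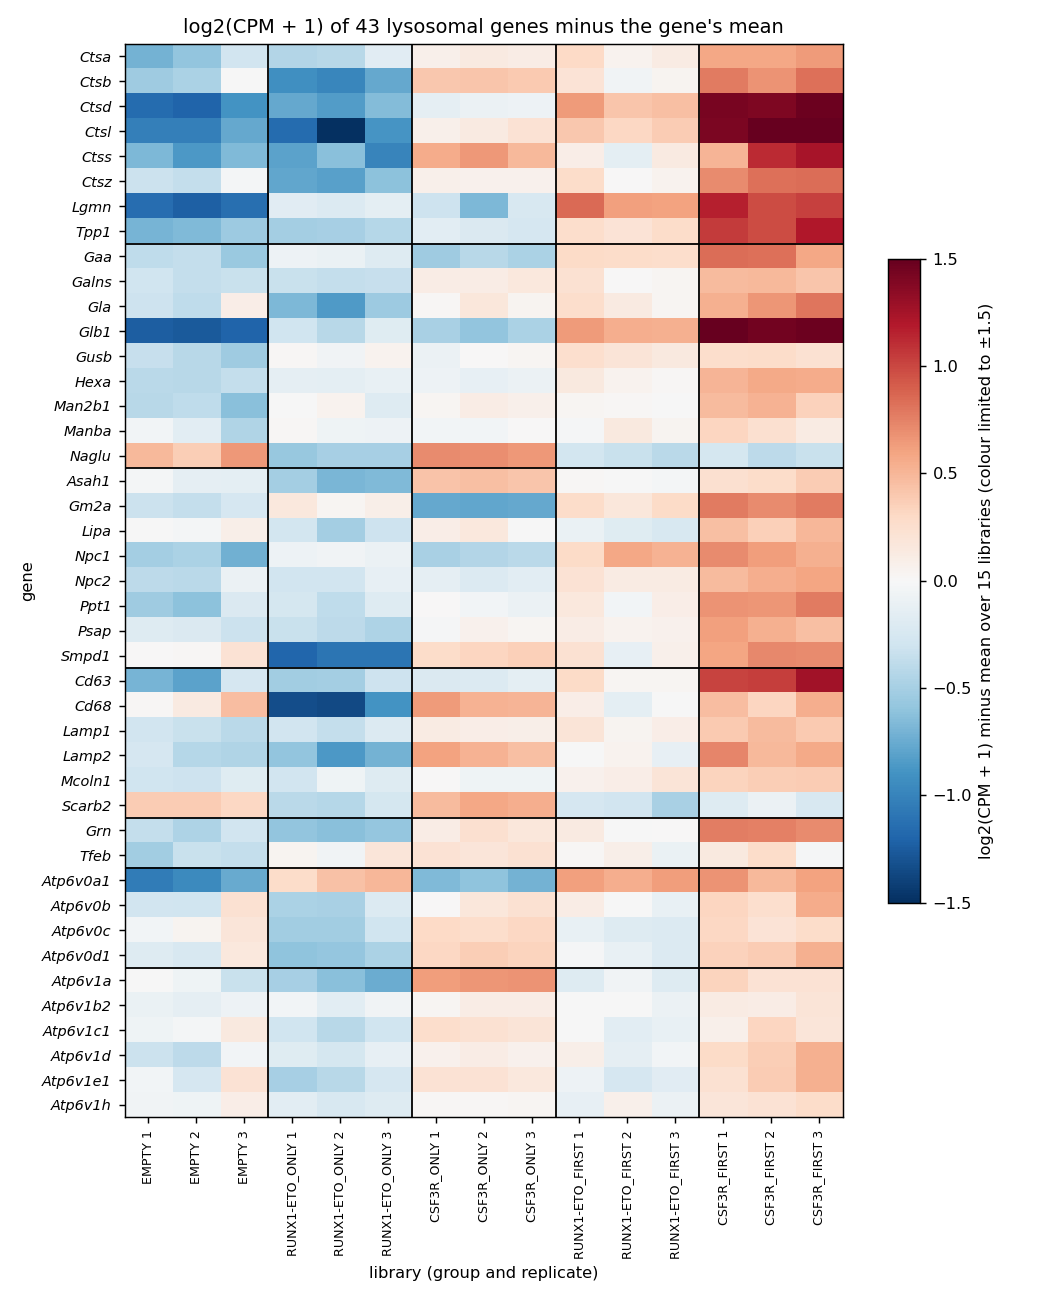
Each row is 1 of the 43 tested genes and each column 1 of the 15 libraries, ordered by group and separated by lines; the colour is log2(CPM + 1) minus the gene's mean over all libraries, with the scale limited to ±1.5. The 3 CSF3R_FIRST columns are red for most rows, Naglu and Scarb2 are blue in every group with the fusion, and Atp6v0a1 is red in those same groups.

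Per kilobase of exon, the scale on which genes can be compared with each other, the aspartic protease gene Ctsd ranked first in EMPTY at 192 ± 22.9 CPM per kilobase. It was followed by Gm2a, the activator protein that presents a ganglioside to its enzyme, at 181 ± 6.91, by the membrane glycoprotein Lamp1 at 143 ± 5.79 and by the protease Ctsz at 131 ± 17.2. Ctsd and Gm2a did not differ beyond their spread there. In CSF3R_FIRST the order was Ctsd at 1097 ± 26.5, Gm2a at 380.2 ± 9.75, Cd63 at 315 ± 31.1, Ctsz at 267 ± 13.3, Lamp1 at 243 ± 7.86 and Glb1 at 238 ± 3.53 CPM per kilobase. Ctsd stood apart from the next gene in that group, while Lamp1 and Glb1 were within their spread of each other. Exons of 14 of the 44 genes share bases with another annotated gene, 12 of them with one on the opposite strand, and no source used here gives the strand setting of the counting. The shares are 34.4% of Ctsd exon bases with the same-strand gene model Gm49369, 26.8% of Ctsl with the antisense gene Gm47123, 12.8% of Ctsb with Fdft1 and 12.8% of Hexa with Tmem202, so reads of those stretches cannot be told apart.

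Which of the alleles came first was associated with a one-sided difference. In RUNX1-ETO_FIRST, 33 of the 43 lysosomal genes were lower than in CSF3R_FIRST and none was higher, against 11.1% lower and 7.18% higher (18.2% in all) of all 13199 genes tested. Atp6v0a1 was the only lysosomal gene whose fitted difference was above 0 (log2 difference 0.01, not past the test), and it was at -0.016 with DESeq2's size factors and 0.11 with library sizes alone. The median log2 difference of the 43 was -0.46, against 0.00 for all tested genes. The libraries of the 2 groups did not overlap for 37 of the 43, against 36.1% of all tested genes. With the 4 libraries of lower long transcripts left out, 37 of 43 were lower and 0 higher, against 34.1% of all genes called, and limma-voom sample weights gave 38 lower, against 32.3%. Most differences were modest: Ctsl and Ctss alone passed 2-fold. With scaling by library size alone, 30 lysosomal genes were lower and 0 higher, while all genes divided into 1841 higher and 1132 lower, against 948 and 1459 with TMM scaling.

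**Figure D2:**
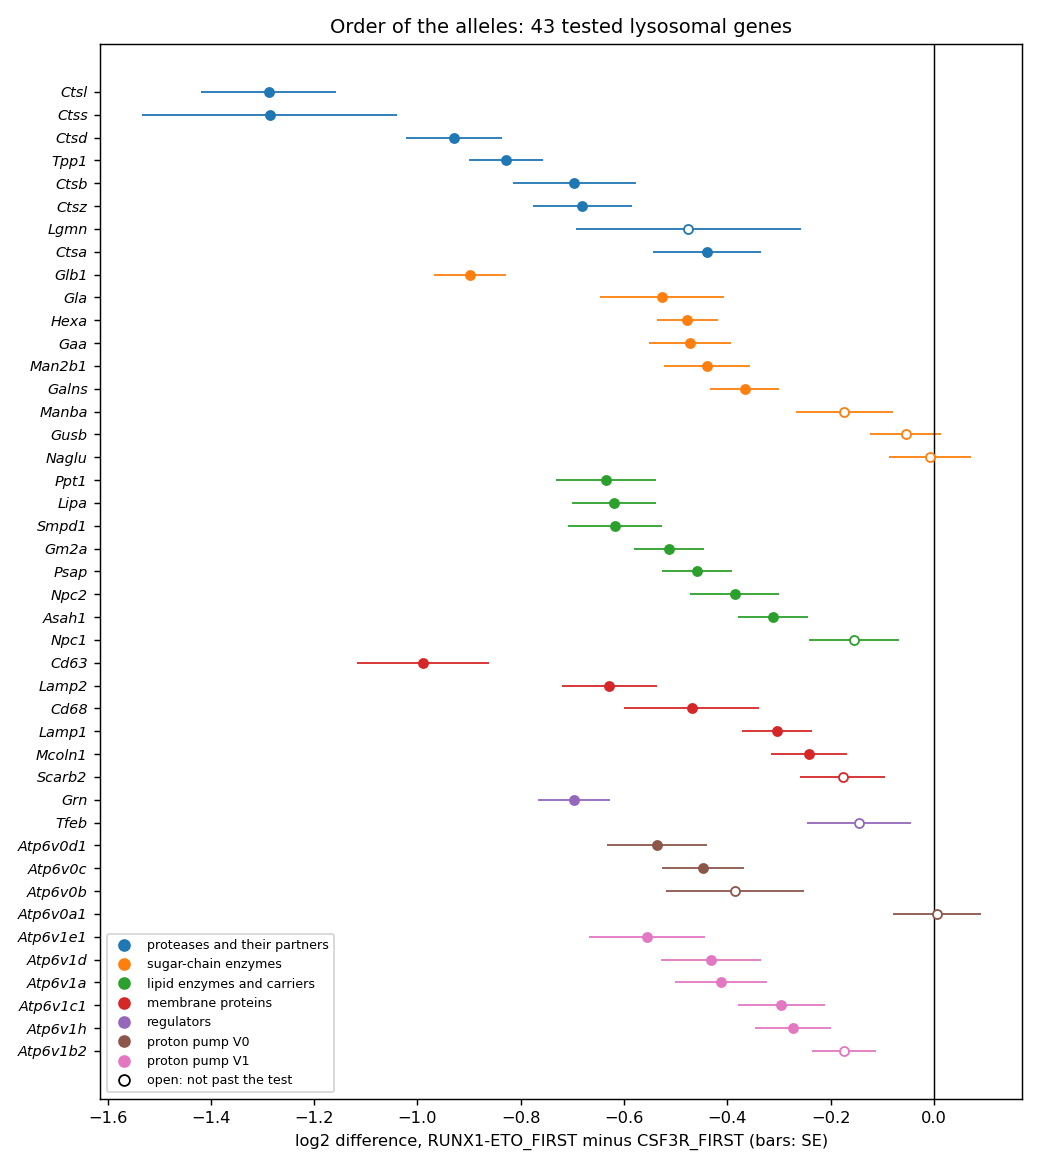
Points are fitted log2 differences, RUNX1-ETO_FIRST minus CSF3R_FIRST, for the 43 tested genes grouped by role, and bars are standard errors; filled points passed the test. The 33 filled points lie left of 0, and the open points include Naglu, Gusb and Atp6v0a1 beside 0.

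Proteases differed most, with 7 of 8 tested lower and a median log2 difference of -0.76. Ctsd (chr7:142375911-142388038, minus strand) encodes the main aspartic protease of lysosomes. Its level was 1491, 1269 and 1303 CPM in the 3 RUNX1-ETO_FIRST libraries and 2565, 2526 and 2648 CPM in those of CSF3R_FIRST. Every RUNX1-ETO_FIRST library was therefore lower, and the log2 difference was -0.93 (SE 0.0930, adjusted p = 4.81e-06, edgeR). The cysteine protease gene Ctsl (chr13:64359337-64370890, minus strand) was at 24.9, 23.2 and 24.3 CPM against 51.0, 63.1 and 62.7 CPM. That is a 2.44-fold lower level (log2 difference -1.29, SE 0.131, adjusted p = 5.80e-06). Tpp1 (chr7:105744811-105752235, minus strand), which clips tripeptides from the ends of proteins, was at 281, 271 and 285 CPM against 485, 460.5 and 539.9 CPM (-0.83, SE 0.0721, adjusted p = 1.25e-06). Ctsb, Ctsz, Ctsa and the scarce Ctss were also lower, by 0.44 to 1.29 on the log2 scale. For Lgmn, which cleaves after asparagine, the means were 2.77 ± 0.368 and 3.86 ± 0.316 CPM and the difference did not pass the test (adjusted p = 0.150).

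Among 9 enzymes of sugar-chain breakdown, 6 were lower in RUNX1-ETO_FIRST. Glb1 (chr9:114401076-114474898, plus strand), the lysosomal beta-galactosidase, was at 401, 377 and 373 CPM against 725, 704 and 716 CPM. The replicates of each group were close together and the log2 difference was -0.90 (SE 0.0705, adjusted p = 4.57e-07). Gla, an alpha-galactosidase, Hexa, a subunit of beta-hexosaminidase, Gaa, which digests glycogen, Man2b1, a mannosidase, and Galns, a sulfatase, were lower by 0.37 to 0.53. Gusb, the beta-glucuronidase, was at 425, 408 and 397 CPM against 428, 432 and 417 CPM, with overlapping libraries and an adjusted p of 0.639. Naglu, which takes part in heparan sulfate breakdown, was at 38.0 ± 1.84 and 38.2 ± 1.85 CPM, and the difference of -0.01 (SE 0.0800) had an adjusted p of 0.964. Manba did not pass the test either.

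Of 8 genes of lipid breakdown and transport, 7 were lower, by 0.31 to 0.63 on the log2 scale. They were Ppt1, which removes palmitate from proteins, Lipa, the acid lipase, Smpd1, the acid sphingomyelinase, Gm2a, Psap, the precursor of the saposins, Npc2, a cholesterol carrier, and Asah1, the acid ceramidase. Gm2a (chr11:55098115-55113029, plus strand) was at 1124, 1042 and 1132 CPM against 1591, 1523 and 1594 CPM. Npc1, the membrane partner of Npc2 in cholesterol export, was at 84.5 ± 8.99 and 94.1 ± 5.57 CPM and did not pass the test (adjusted p = 0.254).

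Of 6 membrane proteins, 5 were lower in RUNX1-ETO_FIRST. Cd63 (chr10:128900989-128912822, plus strand), a tetraspanin of lysosomes and secretory granules, was at 656, 548 and 548 CPM against 1086, 1102 and 1292 CPM (log2 difference -0.99, SE 0.128, adjusted p = 6.21e-05). All 3 RUNX1-ETO_FIRST libraries lay well under the lowest of CSF3R_FIRST. Lamp2, Lamp1, the macrophage-associated glycoprotein Cd68 and the calcium channel Mcoln1 were lower by 0.63, 0.30, 0.47 and 0.24, and Scarb2, the receptor that brings beta-glucocerebrosidase to lysosomes, did not pass. Grn, the progranulin gene, was lower by 0.70 (adjusted p = 4.60e-06). Tfeb itself was at 17.3, 18.1 and 15.9 CPM against 19.0, 20.8 and 16.9 CPM, with overlapping libraries and an adjusted p of 0.370.

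The proton pump moved less evenly. In the membrane sector, Atp6v0c and Atp6v0d1 were lower by 0.45 and 0.54, Atp6v0b was not called (-0.39, adjusted p = 0.0593), and Atp6v0a1 was at 348 ± 10.4 and 346 ± 22.3 CPM. In the V1 sector, 5 of 6 subunits were lower, from -0.27 for Atp6v1h to -0.56 for Atp6v1e1, and Atp6v1b2 did not pass (-0.17, adjusted p = 0.0645). The calls of 4 genes were lost when a library was left out: Cd68 (adjusted p up to 0.0942, without RUNX1-ETO_FIRST replicate 2 or CSF3R_FIRST replicate 3), Mcoln1 (up to 0.185, without replicate 1 or 2 of RUNX1-ETO_FIRST, or replicate 2 or 3 of CSF3R_FIRST), Atp6v1c1 (up to 0.0962, without replicate 2 or 3 of RUNX1-ETO_FIRST, or replicate 2 of CSF3R_FIRST) and Atp6v1h (up to 0.103, without RUNX1-ETO_FIRST replicate 1).

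Promoter windows with and without CACGTG were also set side by side for the orders. With the letters, 10 of 13 genes were lower and the median log2 difference was -0.47. Without them, 18 of 23 were lower and the median was -0.48. The difference between these sets was not tested.

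**Figure D3:**
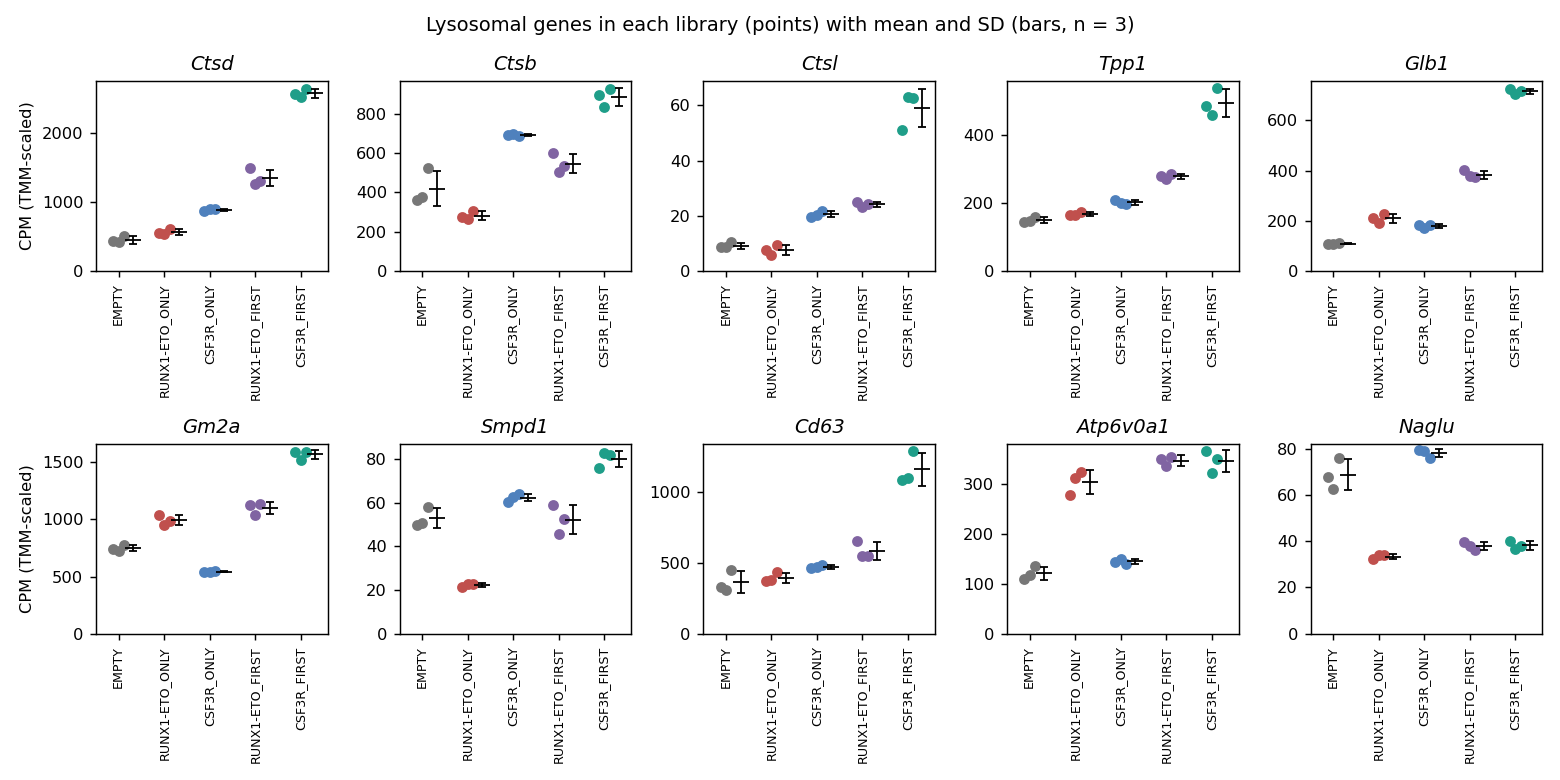
Each panel shows 1 gene in CPM on a linear axis from 0, with a point per library, and the bars beside the points give the mean and SD of 3 libraries per group. Ctsd, Ctsl, Tpp1, Glb1, Gm2a and Cd63 are highest in CSF3R_FIRST, Atp6v0a1 is high in the 3 groups with the fusion and Naglu is low in those 3 groups.

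The fusion alone moved lysosomal genes in both directions. Against EMPTY, RUNX1-ETO_ONLY cells had 11 of 43 genes higher and 17 lower, against 20.8% higher and 18.1% lower of all genes tested, and the median was -0.02 (0.01 for all genes). In either direction 28 of 43 were called, against 38.9%, and libraries did not overlap for 30 of 43, against 43.7%. Sugar-chain enzymes were mostly higher (5 higher, 2 lower, of 9), whereas membrane proteins (0 higher, 3 lower, of 6) and V1 subunits (0 higher, 4 lower, of 6) had no rise. Proteases divided 2 to 2, lipid genes 2 higher to 3 lower, and V0 subunits 1 to 2.

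Atp6v0a1 (chr11:101009452-101063719, plus strand) encodes a large membrane subunit of the pump, and its rise was the largest among the tested lysosomal genes with a mean of at least 10 CPM. It went from 110.4, 118 and 136 CPM in EMPTY to 279, 312 and 325 CPM in RUNX1-ETO_ONLY (log2 difference 1.33, SE 0.0862, adjusted p = 4.90e-09). The lowest library with the fusion was above the highest EMPTY library. The next gene on the same strand, 6292 bases away, is Naglu (chr11:101070012-101077672), which moved the other way. Naglu fell from 67.8, 62.5 and 76.0 CPM to 32.1, 33.9 and 33.9 CPM (-1.05, SE 0.0796, adjusted p = 3.27e-08).

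Other rises were those of Glb1, from 109 ± 2.13 to 209 ± 17.5 CPM (0.94, adjusted p = 2.96e-08), Npc1 (0.50), Tfeb (0.49), Gusb (0.43), Man2b1 (0.43) and Gm2a (0.40). Cd68 fell from 70.9, 76.8 and 97.2 CPM to 27.3, 26.8 and 37.2 CPM (-1.42, SE 0.135, adjusted p = 4.25e-07). Smpd1 (chr7:105554360-105558389, plus strand) fell from 49.9, 50.6 and 58.3 CPM to 21.2, 22.8 and 22.8 CPM (-1.25, SE 0.0946, adjusted p = 3.10e-08). For both genes the highest library with the fusion was well under the lowest EMPTY library. Scarb2 (-0.74), Ctsb (-0.57), Asah1 (-0.52), Gla (-0.52), Ctsz (-0.51), Atp6v0c (-0.51) and Atp6v1a (-0.50) also fell. Cd63 (363 ± 76.8 and 394 ± 33.7 CPM), Lamp1 (384 ± 15.5 and 399.9 ± 20.5 CPM) and Ctsa (240.0 ± 37.6 and 272 ± 28.8 CPM) had overlapping libraries and did not pass. The calls of Ctsd (0.33; adjusted p up to 0.0917 without RUNX1-ETO_ONLY replicate 3 or EMPTY replicate 2), Grn (-0.23; up to 0.0771, without RUNX1-ETO_ONLY replicate 2), Atp6v1e1 (-0.38; up to 0.0724, without RUNX1-ETO_ONLY replicate 1) and Atp6v1h (-0.20; up to 0.205, without any RUNX1-ETO_ONLY replicate or EMPTY replicate 1 or 3) were lost when a library was left out. With the replicate number as a block, 27 of 43 genes were called in place of 28, and Atp6v1h was the call lost (adjusted p = 0.0566). The settings other than leaving out 1 library, this block among them, called 3402 to 6282 of all genes.

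The mutant receptor alone was associated with higher levels. CSF3R_ONLY had 28 of 43 genes higher than EMPTY and 1 lower, against 19.9% higher and 13% lower (32.9% in all) of all genes tested, with a median of 0.33 (0.00 for all genes). Libraries of the groups did not overlap for 35 of the 43, against 44.7% of all genes. By library size alone 24 were higher and 1 lower, with 2252 higher and 2333 lower of all genes, against 2625 and 1721 with TMM scaling. All 8 tested proteases rose. Ctsd went from 428, 414 and 513 CPM to 872, 896 and 903 CPM (log2 difference 0.98, SE 0.0933, adjusted p = 5.80e-07). Ctsl went from 8.54, 8.55 and 10.4 CPM to 19.6, 20.4 and 21.6 CPM (1.16, SE 0.143, adjusted p = 9.93e-06), and Ctsb rose 1.65-fold. In neither Ctsd nor Ctsl did the libraries of the groups overlap.

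Lamp2 (chrX:38401357-38456454, minus strand), a membrane glycoprotein needed for the fusion of autophagosomes with lysosomes, rose from 430.1, 383 and 376 CPM to 781, 739 and 702 CPM (0.90, SE 0.0916, adjusted p = 1.21e-06). Atp6v1a (chr16:44085402-44139705, minus strand), the catalytic pump subunit, rose from 123, 118 and 97.5 CPM to 191, 197 and 197 CPM (0.79, SE 0.0897, adjusted p = 4.23e-06). Glb1 (0.72), Tfeb (0.65), Grn (0.55), Man2b1 (0.54), Asah1 (0.54) and Lamp1 (0.44) were among the other rises. The fall was that of Gm2a, from 741, 725 and 780.0 CPM to 544, 542 and 546 CPM (-0.46, SE 0.0680, adjusted p = 6.61e-05), in which every CSF3R_ONLY library was lower. Gaa (214 ± 15.8 and 208 ± 8.56 CPM), Npc2 (194 ± 25.2 and 211 ± 4.64 CPM) and Atp6v0b (111 ± 24.4 and 131 ± 10.1 CPM) did not pass. Fitting only these 2 groups called 19 genes in place of 29, 18 higher and 1 lower, against 25.8% of all genes. The count of 29 depended on the EMPTY libraries: it was 23 without EMPTY replicate 1, 22 without replicate 2 and 37 without replicate 3. With 1 library of these groups left out at a time, 3435 to 4435 of all genes were called, in place of 4346. Calls of Ctsz, Cd63, Mcoln1, Atp6v0a1, Atp6v0c, Atp6v1b2 and Atp6v1d were lost without EMPTY replicate 1, EMPTY replicate 2 or CSF3R_ONLY replicate 2, with adjusted p up to 0.257, and no call was lost without EMPTY replicate 3.

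Adding the receptor to cells that already carried the fusion was followed by higher levels again. RUNX1-ETO_FIRST had 31 of 43 genes above RUNX1-ETO_ONLY and none below, against 15.9% and 10.3% (26.2% in all) of all genes tested, with a median of 0.40 (-0.02 for all genes). Libraries did not overlap for 37 of 43, against 41.9% of all genes. By library size alone 25 were above and 0 below, while all genes divided into 1676 higher and 2694 lower, against 2102 and 1359 with TMM scaling. All 8 proteases rose, with a median of 1.11, and 2 of 6 V1 subunits did. Ctsl rose from 7.74, 5.90 and 9.53 CPM to 24.9, 23.2 and 24.3 CPM (1.64, SE 0.143, adjusted p = 3.74e-07), and Ctsd rose 2.39-fold. Of the 5 genes that fell most with the fusion alone, Naglu and Scarb2 were not called here and the other 3 rose: Smpd1 went to 58.8, 45.7 and 52.5 CPM (1.23, adjusted p = 8.97e-08), Cd68 to 74.8, 62.9 and 69.9 CPM (1.18, adjusted p = 7.12e-06) and Ctsb to 601, 503 and 536 CPM (0.96, adjusted p = 1.98e-05). Because RUNX1-ETO_ONLY stands in both comparisons, the values of these genes in them are not independent. Gm2a (0.15, adjusted p = 0.121), Man2b1 (0.06, adjusted p = 0.685), Atp6v0a1 (0.19, adjusted p = 0.120), Naglu (0.19, adjusted p = 0.0967) and Scarb2 (0.03, adjusted p = 0.858) did not pass. The calls of Hexa, Gusb, Ppt1, Atp6v0b, Atp6v0c and Atp6v1c1 were lost without RUNX1-ETO_FIRST replicate 1, among other libraries, with adjusted p up to 0.458.

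Adding the fusion to cells that already carried the receptor gave 29 genes higher and 3 lower in CSF3R_FIRST than in CSF3R_ONLY, against 22.2% and 22.5% (44.7% in all) of all genes tested, with a median of 0.36 (-0.02 for all genes). Libraries did not overlap for 35 of 43, against 61.3% of all genes. Glb1 rose from 183, 170.1 and 184 CPM to 725, 704 and 716 CPM, a 3.99-fold change (SE 0.0727 on the log2 scale, adjusted p = 5.21e-12). Gm2a, which the receptor alone had lowered, went from 544, 542 and 546 CPM to 1591, 1523 and 1594 CPM (1.53, SE 0.0693, adjusted p = 6.27e-11). Ctsd rose 2.90-fold, Ctsl 2.87-fold, Tpp1 2.45-fold, Cd63 2.45-fold, Atp6v0a1 2.38-fold, Gaa 2.34-fold and Npc1 2.12-fold. The falls were those of Naglu, from 79.3, 78.8 and 76.2 CPM to 40.1, 36.4 and 38.1 CPM (-1.03, adjusted p = 3.11e-08), Scarb2, from 51.3 ± 1.91 to 31.1 ± 1.71 CPM (-0.72), and Atp6v1a, from 195 ± 3.23 to 148 ± 7.24 CPM (-0.40, adjusted p = 0.00171). Lamp2 (741 ± 39.5 and 780.1 ± 68.9 CPM), Atp6v0d1 (175 ± 3.47 and 186 ± 12.7 CPM) and Atp6v1b2 (134 ± 4.55 and 139 ± 4.24 CPM) did not pass. The calls of Ctsb, Manba and Atp6v1h were lost without any CSF3R_ONLY replicate, among other libraries, with adjusted p up to 0.184.

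Set against EMPTY, the cells with both alleles differed in how many lysosomal genes were higher. CSF3R_FIRST had 39 of 43 higher and 2 lower, against 26.7% and 26.5% (53.3% in all) of all genes, a median of 0.79 (-0.05 for all genes) and 16 genes past 2-fold. RUNX1-ETO_FIRST had 28 higher and 3 lower, against 23.7% and 20.1% (43.8% in all), a median of 0.39 (-0.02 for all genes) and 7 past 2-fold. Libraries did not overlap with EMPTY for 41 of 43 genes in CSF3R_FIRST, against 53.9% of all genes, and for 31 of 43 in RUNX1-ETO_FIRST, against 47.9%. By library size alone CSF3R_FIRST had 36 higher and 2 lower, with 2954 higher and 4833 lower of all genes, against 3527 and 3503 with TMM scaling. The same EMPTY libraries serve both comparisons. Glb1 was 6.57-fold and 3.53-fold above EMPTY in these groups, Ctsl 6.43-fold and 2.63-fold, Ctsd 5.71-fold and 3.0-fold, Tpp1 3.29-fold and 1.85-fold, and Cd63 3.20-fold and 1.61-fold. Naglu and Scarb2 were lower than EMPTY in both, and Atp6v0c was lower in RUNX1-ETO_FIRST (-0.24, adjusted p = 0.0248, up to 0.116 without RUNX1-ETO_FIRST replicate 2 or 3). No V1 subunit passed the test in RUNX1-ETO_FIRST against EMPTY, while 5 of 6 were higher in CSF3R_FIRST. In CSF3R_FIRST, Cd68 (95.8 ± 7.27 CPM) and Atp6v1c1 (50.2 ± 4.31 CPM) did not pass the test against EMPTY. In RUNX1-ETO_FIRST the rises of Ctsb, Ctsz and Gla were lost without its replicate 1 and that of Manba without its replicate 2 or 3 (adjusted p up to 0.178). In CSF3R_FIRST those of Atp6v0c and Atp6v1h were lost without EMPTY replicate 1 or 2 (adjusted p up to 0.426).

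**Figure D4:**
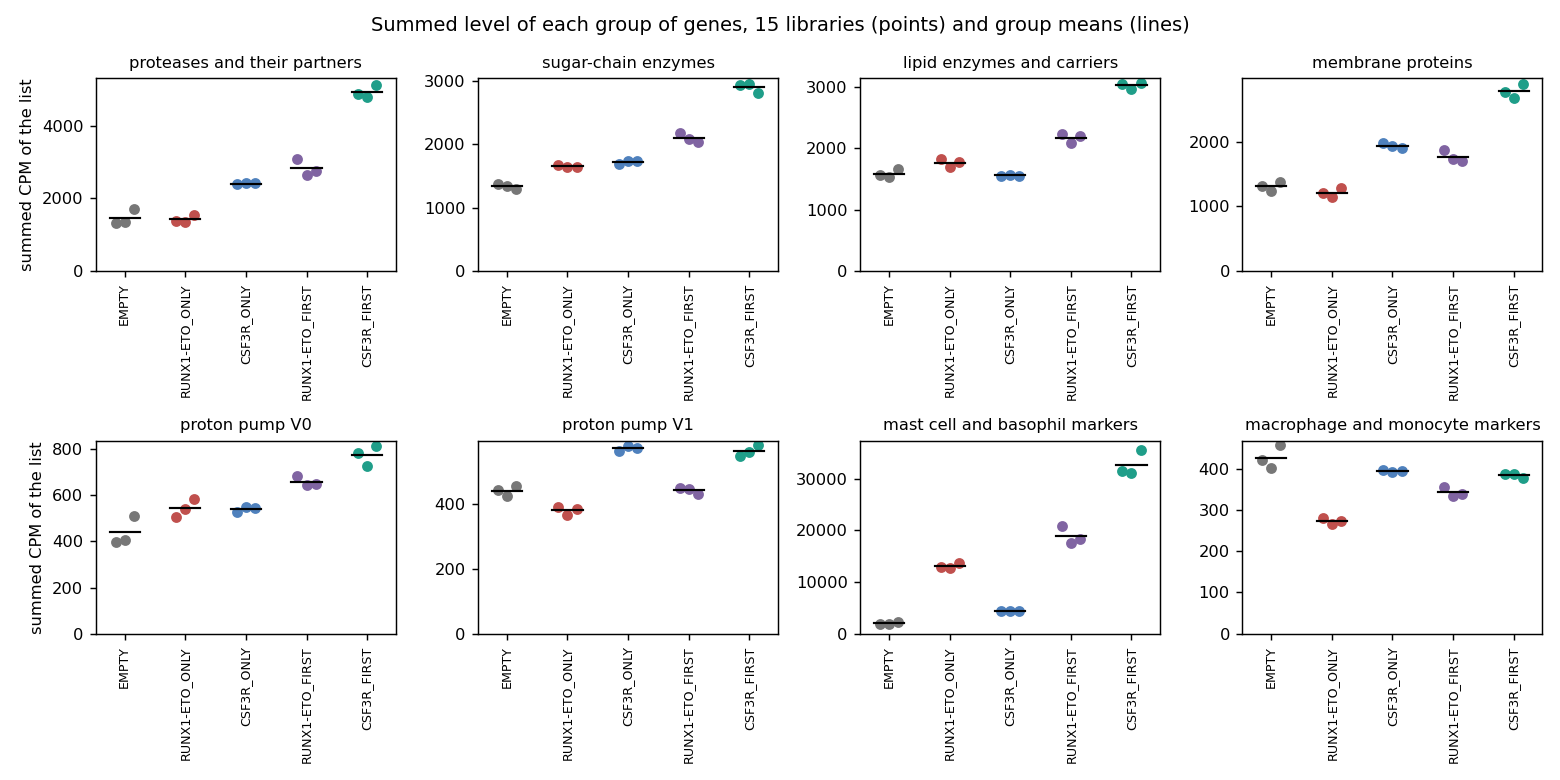
Each panel gives the summed CPM of a group of genes per library (points) with the group mean (line), on linear axes from 0. The last 2 panels are cell type markers. The sums of proteases, sugar-chain enzymes, lipid genes and membrane proteins are highest in CSF3R_FIRST, and the V1 sum is alike in CSF3R_ONLY and CSF3R_FIRST. Mast cell and basophil markers are lowest in EMPTY, higher in CSF3R_ONLY and highest in the groups with the fusion.

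Whether the fusion acted alike with and without the receptor was tested as a difference of differences, CSF3R_FIRST minus CSF3R_ONLY less RUNX1-ETO_ONLY minus EMPTY. For 29 of 43 lysosomal genes the difference passed the test, against 22.7% of all genes, 27 of them with a higher value in receptor cells. For 7 genes both effects were called and had opposite signs: Ctsb, Ctsz, Gla, Smpd1, Lipa, Grn and Atp6v1h. They fell from EMPTY to RUNX1-ETO_ONLY and rose from CSF3R_ONLY to CSF3R_FIRST. In RUNX1-ETO_FIRST, the other group with both alleles, the means of Ctsb (547 and 690 CPM), Smpd1, Lipa, Grn and Atp6v1h were below those in CSF3R_ONLY. Those of Ctsz (240 and 232 CPM) and Gla (98.6 and 93.8 CPM) were above. RUNX1-ETO_FIRST was not tested against CSF3R_ONLY. The calls of Ctsb, Grn and Atp6v1h in the single comparisons were among those lost when a library was left out. Smpd1 had effects of -1.25 and 0.36 (difference 1.61, SE 0.131, adjusted p = 4.59e-07), and Ctsz had -0.51 and 0.73 (difference 1.24, SE 0.136, adjusted p = 1.02e-05). Among genes higher in receptor cells, Ctsl had the largest difference, 1.77 (SE 0.200, adjusted p = 1.29e-05), with -0.25, not called, and 1.52. The differences of Lamp2 and Mcoln1 were lost without CSF3R_ONLY replicate 2 or 3, and that of Lgmn without CSF3R_ONLY replicate 3 or EMPTY replicate 2 (adjusted p up to 0.264). Genes whose effects did not differ by the test included Naglu (difference 0.01, SE 0.111), Scarb2 (0.02, SE 0.115), Atp6v1a (0.10, SE 0.126) and Atp6v0a1 (-0.08, SE 0.120). Tfeb went the other way, with 0.49 and -0.07 (difference -0.57, SE 0.143, adjusted p = 0.00930).

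**Figure D5:**
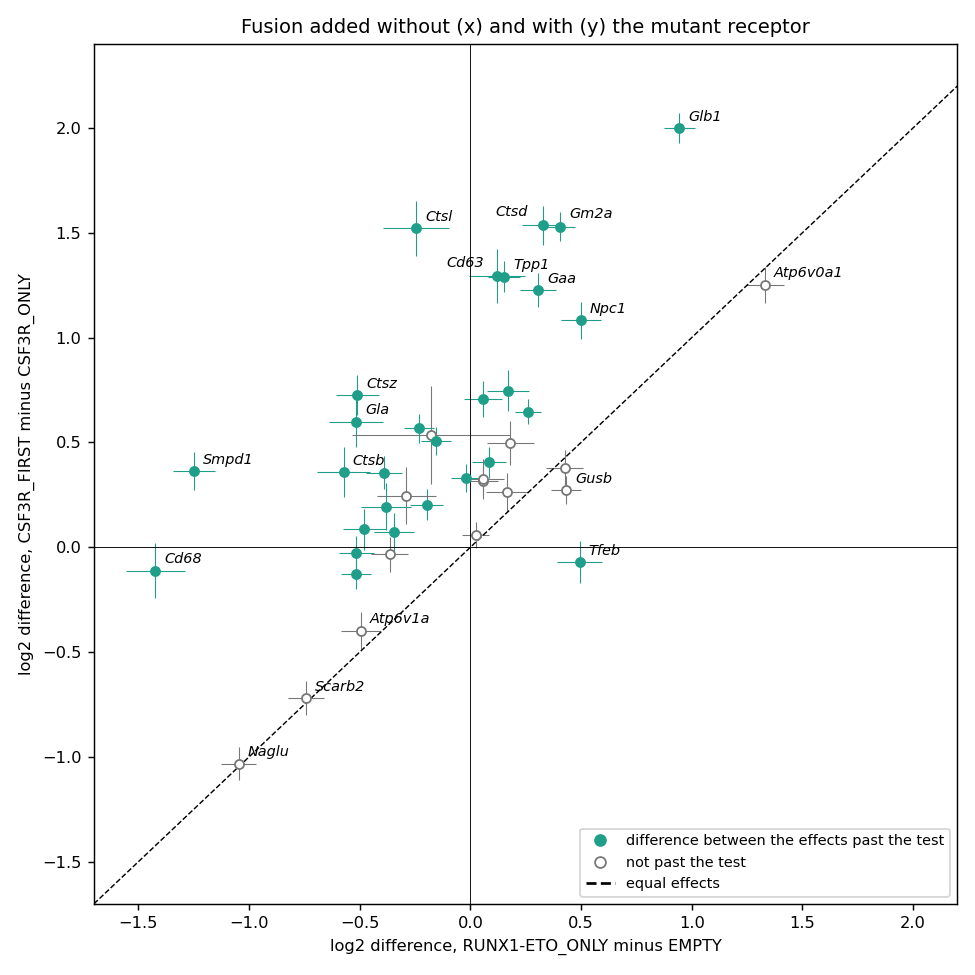
Each point is 1 gene, with its log2 difference on adding the fusion to control cells (x) and to receptor cells (y); bars are standard errors and the dashed line marks equal effects, and Lgmn is left out because EMPTY held 2 counts of it. Most filled points, whose 2 effects differed by the test, lie above the line, whereas Naglu, Scarb2, Atp6v1a and Atp6v0a1 lie on or near it.

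The same test with the other group of both alleles, RUNX1-ETO_FIRST minus RUNX1-ETO_ONLY less CSF3R_ONLY minus EMPTY, passed for 10 of 43 genes, against 15.7% of all genes. It passed for 17 genes (26.7% of all genes) with the 4 libraries of lower long transcripts left out, and for 16 (26.4%) with limma-voom sample weights. The signed difference was above 0 for Smpd1 (difference 1.0, SE 0.131, adjusted p = 6.41e-05), Cd68 (0.84), Gm2a (0.61), Gla (0.59), Ctsz (0.56), Gaa (0.45) and Npc1 (0.43), and below 0 for Man2b1 (-0.49), Tfeb (-0.71) and Lgmn. The receptor's effect on Gm2a was -0.46, called, without the fusion and 0.15, not called, with it. The calls of Gla (adjusted p up to 0.0819) and Npc1 (up to 0.0898) were lost without any of several libraries, among them RUNX1-ETO_ONLY replicates 1 and 2 and CSF3R_ONLY replicates 1 and 3. These 2 difference tests share the EMPTY, RUNX1-ETO_ONLY and CSF3R_ONLY libraries. They combine those groups in the same way and differ only in the group with both alleles. Each can be read as a change in the effect of either allele. Their counts therefore do not show which allele's effect depends more on the other.

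A few genes were at the limit of detection. Lgmn had 2 counts in the 3 EMPTY libraries together, against 62 in RUNX1-ETO_ONLY, 40 in CSF3R_ONLY, 149 in RUNX1-ETO_FIRST and 193 in CSF3R_FIRST. The ratios of counts per total to EMPTY were 28.2 (95% interval 7.47 to 238), 20.4 (5.30 to 174), 73.2 (19.9 to 610.2) and 102 (27.8 to 847), where the exact interval covers counting error only. Lgmn was thus scarce in EMPTY and detected in all other libraries, with levels of 0.463 to 4.21 CPM. Ctss was at 0.702 ± 0.127 CPM in EMPTY, 0.617 ± 0.201 in RUNX1-ETO_ONLY, 3.17 ± 0.238 in CSF3R_ONLY, 1.88 ± 0.298 in RUNX1-ETO_FIRST and 4.59 ± 1.40 CPM in CSF3R_FIRST. Ctsh was at 0 counts in all RUNX1-ETO_ONLY libraries, where 3 counts would have been 0.153 to 0.157 CPM, and had its highest mean, 0.522 ± 0.118 CPM, in CSF3R_ONLY.

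The other genes of the pathway were taken from lists of further lysosomal enzymes, membrane proteins and pump subunits, 73 genes of which 64 were tested. In RUNX1-ETO_FIRST against CSF3R_FIRST, 29 were lower and 1 was higher (background 11.1% and 7.18%), with a median of -0.33. Among 34 further enzymes, 21 were lower: Hgsnat, which takes part in heparan sulfate breakdown, was at 47.4 against 93.2 CPM (-0.98), and the protease Ctse at 74.0 against 133 CPM (-0.85). The gene that was higher, named after its values were seen, was Tpcn1, an ion channel of endosomes and lysosomes, at 123 against 94.4 CPM (0.38). In CSF3R_FIRST against EMPTY, 39 of the 64 were higher and 5 lower, beside 26.7% and 26.5% of all genes. With the fusion alone they divided into 22 higher and 13 lower (20.8% and 18.1% of all genes), and with the receptor alone into 32 higher and 5 lower (19.9% and 13%). Arsb, a sulfatase of chondroitin breakdown, was at 465 CPM in EMPTY and 505 CPM in CSF3R_ONLY but at 119.8, 62.8 and 78.4 CPM in RUNX1-ETO_ONLY, RUNX1-ETO_FIRST and CSF3R_FIRST (log2 change -1.96 with the fusion alone and -2.69 in receptor cells). Tcirg1, an alternative to Atp6v0a1 in the pump, was at 180.4 and 185 CPM without the fusion and at 68.1, 78.2 and 76.2 CPM with it (-1.41 and -1.28).

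Genes that deliver enzymes to lysosomes or act with Tfeb were read against the 18.2% of all genes called between the orders. Of 16 sorting genes 1 was higher and 1 lower, of 17 genes of the Tfeb family and its mTORC1 docking site 3 were lower, and of 20 autophagy genes 4 were lower. Tfe3 was at 91.1 and 94.7 CPM in RUNX1-ETO_FIRST and CSF3R_FIRST (-0.06, not called), above 41.2 CPM in EMPTY. Mitf was at 8.36 and 8.76 CPM in these groups and was not called (-0.07). Tfec was lower in RUNX1-ETO_FIRST, at 60.1 against 96.6 CPM (-0.68), and stood at 33.1 CPM in EMPTY, 59.0 CPM in RUNX1-ETO_ONLY and 12.4 CPM in CSF3R_ONLY. Gnptab, which makes the mannose 6-phosphate tag of lysosomal enzymes, rose from 123 to 530.4 CPM with the fusion alone (2.11) and was at 461 and 443 CPM in the groups with both alleles.

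Cell type markers moved with these groups, and their counts between the orders stand beside 11.1% of all genes lower and 7.18% higher. The 14 mast cell and basophil markers summed to 1830 to 2300 CPM in EMPTY, 12614 to 13732 in RUNX1-ETO_ONLY, 4364 to 4443 in CSF3R_ONLY, and 17499 to 20922 in RUNX1-ETO_FIRST. In CSF3R_FIRST they summed to 31039 to 35567 CPM. Of these markers 12 of 14 were lower in RUNX1-ETO_FIRST than in CSF3R_FIRST, Fcer1a was at 0 counts in EMPTY, and Cpa3, a mast cell protease, was the most abundant in those groups at 10975.4 and 16229.9 CPM. The sum of these 14 markers was above every EMPTY library in each library of RUNX1-ETO_ONLY and of CSF3R_ONLY. The 15 macrophage and monocyte markers, 10 of them tested, summed to 401 to 457 CPM in EMPTY, 265 to 280 in RUNX1-ETO_ONLY, 393 to 397 in CSF3R_ONLY, and 333 to 355 in RUNX1-ETO_FIRST, with 378 to 388 CPM in CSF3R_FIRST. C1qa, Marco and Vsig4 were at 0 counts in all groups, and between the orders 6 of the 10 tested were lower and 1 was higher. Neutrophil markers summed to 49181 to 57075 CPM in EMPTY, 20413 to 22121 in RUNX1-ETO_ONLY, 35894 to 35981 in CSF3R_ONLY, and 16531 to 18758 in RUNX1-ETO_FIRST, with 17671 to 18292 CPM in CSF3R_FIRST, and 8 of 13 were lower in RUNX1-ETO_FIRST than in CSF3R_FIRST. Erythroid and megakaryocyte markers (8 of 10 tested) summed to 85.4 to 90.2 CPM in EMPTY, 203 to 214 in RUNX1-ETO_ONLY, 267 to 272 in CSF3R_ONLY, 279 to 293 in RUNX1-ETO_FIRST and 378 to 393 CPM in CSF3R_FIRST, and 4 were lower between the orders. Stromal and endothelial markers (3 of 8 tested, none called between the orders) summed to 291 to 323, 610.4 to 659, 359 to 369.6, 782 to 804 and 858 to 879.8 CPM in these groups. In each group 4 or 5 of these 8 had 0 counts, so the sum rests on few genes and does not by itself identify such cells. Eosinophil markers (4 of 8 tested, 1 higher and 2 lower between the orders) summed to 128 to 142, 60.3 to 65.9, 275 to 287, 38.5 to 44.8 and 42.6 to 50.7 CPM. By group mean, the mast cell, erythroid and stromal sums, like the lysosomal one, were lowest in EMPTY and highest in CSF3R_FIRST. The neutrophil, macrophage and eosinophil sums were not. Such sums mostly reflect the most abundant genes, and single markers could go the other way. With the receptor alone, 19.9% of all genes tested rose against EMPTY and 13% fell. In that comparison 9 of 13 neutrophil markers rose and 2 fell (median log2 difference 2.71), although their sum was lower. Mpo fell from 45044.5 to 25623.8 CPM. Of the 10 tested macrophage and monocyte markers, 6 rose and 2 fell (median 0.90), and their sum was lower too. The part of these cell type markers in the lysosomal differences was not tested.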

How the data were processed

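RNA from 15 libraries of HoxB cells was sequenced after strand-specific mRNA library preparation, per the labels' protocols. The authors deposited raw counts per gene, per the file headers, in 1 table of 52328 entries, of which 1 names no gene (0.0179% to 0.0305% of counts) and was left out. Per the submitters' processing notes, the tools were STAR, Trimmomatic and DESeq2 and the build mm10. The counting program, its annotation and its strand setting were not given in the sources used here.

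Genes with at least 10 counts in at least 3 libraries were tested with edgeR 4.0.16 (R 4.3.3): TMM scaling, 5 group means, 10 residual degrees of freedom, robust quasi-likelihood F-tests, and Benjamini-Hochberg adjustment over all genes tested, with a threshold of 0.05. Log2 differences are those of the edgeR fit. The log2 CPM values behind the deviations of libraries from their group means use a prior count of 2. All adjusted p-values are from this test unless another tool is named. Total counts per library were 17003189 to 18173954, and the 95% interval and the floor of 3 counts cover counting error only. Gene positions and exon lengths come from GENCODE on mm10, promoters from RefSeq on GRCm38.p6. Alternatives used limma 3.58.1 and DESeq2 1.42.0. The test was also run on simulated counts with far fewer changed genes than in these data, and no result given here rests on that run.

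The genes and lists were chosen with earlier results of these data known, and the tests of a difference of differences were added after seeing the data. Full statistics were given for up to 5 rises and 5 falls per comparison with a mean of at least 10 CPM, and for up to 3 abundant genes not past the threshold. Deviations from the group means of libraries with the same replicate number correlated above 0.1 in every pair for EMPTY with RUNX1-ETO_ONLY (0.275, 0.267 and 0.451) and for EMPTY with CSF3R_FIRST (0.161, 0.135 and 0.362). Some pairs of unlike number did so too: EMPTY replicate 2 with CSF3R_FIRST replicate 1 (0.214) and EMPTY replicate 1 with RUNX1-ETO_ONLY replicate 2 (0.138). Replicate 3 of these groups was also among the libraries of lower long transcripts. Whether the numbers pair these groups is therefore not shown. For the other groups, not every pair of the same number was above 0.1, and no label says what a number shares.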

Additional observations from a re-analysis of the deposited data

Results flagged for a closer look

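A difference between settings was tested for the effect of each allele with and without the other, and these results were picked out because that difference passed edgeR's quasi-likelihood test. The effect of the receptor differed between cells with and without the fusion for 10 of 43 lysosomal genes, against 15.7% of all genes, and for 17 (26.7%) without the 4 libraries of lower long transcripts. The effect of the fusion differed between cells with and without the receptor for 29 of 43, against 22.7% of all genes. These tests differ only in the group with both alleles, RUNX1-ETO_FIRST in the former and CSF3R_FIRST in the latter. Their counts therefore do not show which allele's effect depends more on the other.

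The following log2 differences are the effect of the fusion in receptor cells minus that in control cells. Proteases had 1.77 for Ctsl, 1.24 for Ctsz, 1.21 for Ctsd, 1.14 for Tpp1 and 0.93 for Ctsb. Lipid genes had 1.61 for Smpd1, 1.12 for Gm2a and 0.75 for Lipa. The sugar-chain enzymes Gla and Glb1 had 1.11 and 1.05. The membrane proteins Cd68 and Cd63 had 1.31 and 1.18, Grn had 0.80 and the pump subunit Atp6v1h had 0.40. Summed mast cell and basophil markers were also higher than in EMPTY in every other group, CSF3R_ONLY included, and their part in these differences was not tested.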

How the results depend on the processing

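No lysosomal gene past the test changed sign in any setting run. Of the calls in the report, 29 of 33 between the orders, 22 of 28 for the fusion alone, 20 of 29 for the receptor alone, 24 of 31 for the receptor added second, 29 of 32 for the fusion added second, and 25 of 31 and 38 of 41 for both alleles against EMPTY were made in every setting. Leaving out 1 library at a time gave 30 to 33, 26 to 31, 22 to 37, 25 to 29, 29 to 32, 28 to 32 and 39 to 43 calls in the same order. Of all genes, 1716 to 2132, 4201 to 5211, 3435 to 4435, 2743 to 3032, 5033 to 5291, 4959 to 6093 and 6323 to 7622 were then called. Fitting only the groups compared gave 19 lysosomal calls for the receptor alone in place of 29, and 3402 of all genes for the fusion alone in place of 5132. Between the orders 4391 of all genes were called when the 4 libraries with lower long transcripts were left out, and 4267 with limma-voom sample weights, in place of 2407. For the difference in the receptor's effect these settings gave 17 and 16 lysosomal genes in place of 10, and 3446 and 3485 of all genes in place of 2076; the cause was not tested.

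Scaling by library size alone moved the median of all genes by 0.10 between the orders, -0.14 for the receptor added second, -0.10 for the fusion added second and -0.19 in CSF3R_FIRST against EMPTY. All genes then divided into 1841 higher and 1132 lower between the orders, against 948 and 1459, while 0 lysosomal genes were higher and 30 lower. For the fusion alone it gave 3286 higher and 1998 lower of all genes against 2740 and 2392, and 14 higher and 15 lower lysosomal genes against 11 and 17. For the receptor alone it gave 2252 and 2333 against 2625 and 1721, for the receptor added second 1676 and 2694 against 2102 and 1359, and in CSF3R_FIRST against EMPTY 2954 and 4833 against 3527 and 3503.

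Differences that changed sign were none of them past the test, and the cause was not tested. By library sizes alone, Gusb was at 0.045 between the orders, Man2b1 at -0.064 for the receptor added second, and Lamp2 at -0.0076 and Atp6v1b2 at -0.025 for the fusion added second. Atp6v0a1 between the orders was at -0.016 with DESeq2's size factors or DESeq2, -0.018 with no filter and -0.021 without those 4 libraries, and -0.069 to 0.031 with 1 library left out. Without the 4 libraries, Lamp1 was at -0.026 for the fusion alone, Man2b1 at -0.029 for the receptor added second and Atp6v0d1 at 0.037 in RUNX1-ETO_FIRST against EMPTY, where limma-voom gave 0.046. With 1 library left out, Man2b1 ranged from -0.016 to 0.11, Atp6v0d1 from -0.11 to 0.085 and Atp6v1a from -0.14 to 0.046.

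Over 30 pairs of the same replicate number the correlations were -0.24 to 0.45, and 8 of 15 libraries correlated best with their own number. A replicate block gave 34, 27, 30, 29, 32, 31 and 41 calls. The settings other than leaving out 1 library include this block. They called 2114 to 4391, 3402 to 6282, 3171 to 6101 and 3094 to 5096 of all genes in the first comparisons. In the last ones they called 5576 to 7558, 4139 to 7208 and 5420 to 8277. In the fusion alone and CSF3R_FIRST against EMPTY, whose pairs of the same number all correlated above 0.1, the block changed no lysosomal call but that of Atp6v1h. Ctsh, with 0 to 11 counts per library, was too scarce for the test at this depth.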
